A study of Mus musculus with 2 samples.

Results

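The genes described here are 9 of the 25906 in the count tables: the zinc-finger transcription factors Klf2, Klf4 and Klf6, the nitric oxide synthase gene Nos3, the endothelin peptides Edn1 and Edn3, the endothelin receptor Ednrb, the anticoagulant receptor Thbd and the thioredoxin-binding arrestin Txnip. They were taken by symbol, with earlier results of these data known, and all 9 were found in the tables. The study sequenced 2 droplet libraries (10x Genomics Chromium, 3′ chemistry v3.1) of cells sorted as astrocytes and endothelial cells from adult mouse whole brain. 1 library is labelled IL34LacZ/LacZ, both alleles of the cytokine gene Il34 carrying LacZ, and 1 is labelled IL34LacZ/+, called WT in the study's design although it carries 1 LacZ allele. The number, sex and age of the mice behind each library, any pooling, and the position of the LacZ insertion are not stated in the labels. With 1 library per genotype there is no replicate check and no test: the 95% intervals below cover counting error only, UMIs of 1 cell are not independent of each other, and a difference between genotypes cannot be told apart from a difference between these libraries.

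Klf2 and Klf4 are the factors best known as induced in endothelium by steady laminar shear stress, through the kinase ERK5 and MEF2 factors, and they are known to raise Nos3 and Thbd and to lower Edn1. Nitric oxide made by the Nos3 product relaxes vascular smooth muscle, whereas endothelin-1 constricts it, mainly through the Ednra receptor on smooth muscle. The Ednrb receptor on endothelium leads to nitric oxide release, and in brain Ednrb is known above all as an astrocyte gene.

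After filters 1168 cells of the IL34LacZ/LacZ library (median 10378 UMIs) and 1665 cells of the IL34LacZ/+ library (median 8096 UMIs) were kept, and 1114 and 1603 of them were placed in a class by marker genes that include none of the 9 genes. The sort had let through many other cells. Endothelial-like cells numbered 291 in the IL34LacZ/LacZ library and 507 in the IL34LacZ/+ library, astrocyte-like cells 115 and 248, oligodendrocyte-like cells 235 and 255, choroid plexus epithelium-like cells 258 and 351, and Slc47a1 border-like cells, gated by Slc47a1, Bnc2, Rspo3 and related genes, 74 and 80. The 10 genes that led the endothelial-like class by fold held 6 of its markers (Flt1, Adgrl4, Cldn5, Ptprb, Slco1a4 and Ly6c1), and none of another class. The gate used these same markers, so their lead is no independent check of the class. The summed markers of the border class stood at 125 CPM in endothelial-like cells of the IL34LacZ/LacZ library and 116 CPM in those of the IL34LacZ/+ library, against 11716 and 10284 CPM in the border-like cells themselves. Summed choroid plexus epithelium markers stood higher in endothelial-like cells, at 1051 and 1461 CPM. Of the 291 and 507 endothelial-like cells, 128 and 185 held fewer than 2 markers of every other class checked, so most carried some RNA of other classes. The tag of Il34 gave no check of the genotype: in pericyte-like cells it stood at 521 CPM (436 to 617) in the library labelled IL34LacZ/LacZ and 375 CPM (288 to 478) in the library labelled IL34LacZ/+, and which part of the gene the LacZ allele removes is not stated in the labels.

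Over the 8 classes with at least 19 cells in each library, the 3 KLF genes had their highest levels in the same pair of classes, endothelial-like and Slc47a1 border-like cells. Klf2 stood at 447 CPM (410.1 to 487) in border-like cells of the IL34LacZ/LacZ library and 498 CPM (459 to 539) in those of the IL34LacZ/+ library. In endothelial-like cells it stood at 235 CPM (212 to 259.7) in the IL34LacZ/LacZ library and 382 CPM (358 to 406) in the IL34LacZ/+ library. Border-like cells held 50.9% of the Klf2 UMIs of the IL34LacZ/LacZ library and 32.9% of those of the IL34LacZ/+ library, and endothelial-like cells 37.1% and 54.4%. In astrocyte-like, oligodendrocyte-like and choroid plexus-like cells Klf2 was at 2.62 CPM or less in either library. Ribosomal protein genes took 1.5% or more of the UMIs in 94.6% and 87.5% of border-like cells, but in 9.28% and 17.8% of endothelial-like cells. In endothelial-like cells of such high share Klf2 stood at 596 and 870.4 CPM, and Klf4 at 378 and 459.7 CPM. The part of this share in the order of the 2 classes was not tested.

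Klf4 followed the same order in the IL34LacZ/LacZ library, with 336 CPM (303 to 370.3) in border-like and 205 CPM (184 to 228) in endothelial-like cells. In the IL34LacZ/+ library the 328 CPM (296 to 361) of border-like cells and the 308 CPM (287 to 329.6) of endothelial-like cells had overlapping intervals. Oligodendrocyte-like cells had Klf4 at 29.8 CPM in the IL34LacZ/LacZ library and 30.5 CPM in the IL34LacZ/+ library, a level carried by few cells: 1 cell held 26.6% and 52.7% of those UMIs. Klf6, a KLF gene of wide expression, was the least confined of the 3, with 44.9 CPM in oligodendrocyte-like cells of the IL34LacZ/LacZ library and 42.7 CPM in those of the IL34LacZ/+ library beside 123 and 129.6 CPM in endothelial-like cells. Its level in border-like cells, 114 CPM (95.9 to 135) in the IL34LacZ/LacZ library and 88.1 CPM (72.2 to 106) in the IL34LacZ/+ library, overlapped in interval with that of fibroblast-like cells (37.8 to 111 CPM and 36.3 to 116 CPM).

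Nos3 and Edn1 were endothelial genes in these libraries. Endothelial-like cells held 81.2% of the Nos3 UMIs in the IL34LacZ/LacZ library and 87.6% in the IL34LacZ/+ library, and 88.0% and 91.9% of the Edn1 UMIs. Choroid plexus-like cells had Nos3 at 17.3 CPM (13.4 to 22.0) in the IL34LacZ/LacZ library and 16.1 CPM (12.7 to 20.2) in the IL34LacZ/+ library, where the summed endothelial markers stood at 468 and 528 CPM, against 25920.3 and 29441 CPM in endothelial-like cells. Neuron-like cells had Nos3 at 22.1 CPM (4 UMIs in 22 cells) in the IL34LacZ/LacZ library and 79.4 CPM (17 UMIs in 35 cells) in the IL34LacZ/+ library, with summed endothelial markers at 944 and 3429 CPM. The part of stray endothelial RNA in these levels was not tested. Edn3 was highest in fibroblast-like cells, at 409 CPM (329 to 502) in 22 cells of the IL34LacZ/LacZ library and 398 CPM (314 to 498) in 19 cells of the IL34LacZ/+ library. Endothelial-like cells came next for Edn3, at 33.0 CPM (24.8 to 43.0) and 52.6 CPM (44.2 to 62.2).

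Ednrb was an astrocyte gene here: 73.3% of its UMIs in the IL34LacZ/LacZ library and 80.9% in the IL34LacZ/+ library lay in the astrocyte-like class. Its level there was 499 CPM (459 to 541) in the IL34LacZ/LacZ library and 532 CPM (502 to 563) in the IL34LacZ/+ library. The log2 ratio in that class was −0.09 (−0.24 to 0.05). Over all kept cells Ednrb stood at 56.7 CPM in the IL34LacZ/LacZ library and 92.1 CPM in the IL34LacZ/+ library, while astrocyte-like cells made up 9.85% and 14.9% of the cells. Choroid plexus-like cells had Ednrb at 36.1 CPM (30.3 to 42.6) in the IL34LacZ/LacZ library and 29.7 CPM (24.9 to 35.0) in the IL34LacZ/+ library.

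Over the same 8 classes Thbd and Txnip were highest in Slc47a1 border-like cells. Thbd, whose product turns thrombin from a clotting enzyme into an activator of protein C, stood there at 795 CPM (745 to 847) in the IL34LacZ/LacZ library and 598 CPM (555 to 643) in the IL34LacZ/+ library, a log2 ratio of 0.41 (0.27 to 0.55). Txnip, whose product restrains thioredoxin and glucose uptake, stood there at 310.1 CPM (279 to 344) and 291 CPM (262 to 323). Klf2, Klf4 and Klf6 had log2 ratios of −0.15 (−0.33 to 0.02), 0.03 (−0.17 to 0.24) and 0.38 (0.00 to 0.76) in border-like cells. None of these 5 genes was past 1.5-fold there, in a class where 6.00% of the 8673 genes measured were lower and 2.95% higher by that rule. Microglia-like cells, 10 in the IL34LacZ/LacZ library and 44 in the IL34LacZ/+ library, were shallow (median 1722 and 1756 UMIs). They had no Txnip UMI in the IL34LacZ/LacZ library, where 3 counts would stand at 177 CPM, and 36 UMIs (413 CPM, 289.6 to 572) in the IL34LacZ/+ library. Klf6 had 12 UMIs (709.8 CPM) there in the IL34LacZ/LacZ library, all in 1 cell, and 14 UMIs (161 CPM) in the IL34LacZ/+ library. In oligodendrocyte-like cells 1 cell held 71.1% of the Ednrb UMIs of the IL34LacZ/+ library: the gene was called lower in the class, at 1.63 CPM in the IL34LacZ/LacZ library and 10.5 CPM in the IL34LacZ/+ library, where 3.89% of 10064 genes were lower and 1.81% higher. Txnip was called higher in choroid plexus-like cells, at 12.3 CPM and 5.93 CPM (log2 ratio 1.05, 0.35 to 1.78), where 6.72% of 9221 genes were higher and 1.33% lower, and 1 cell held 27.7% of its UMIs in the IL34LacZ/LacZ library.

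**Figure D1:**
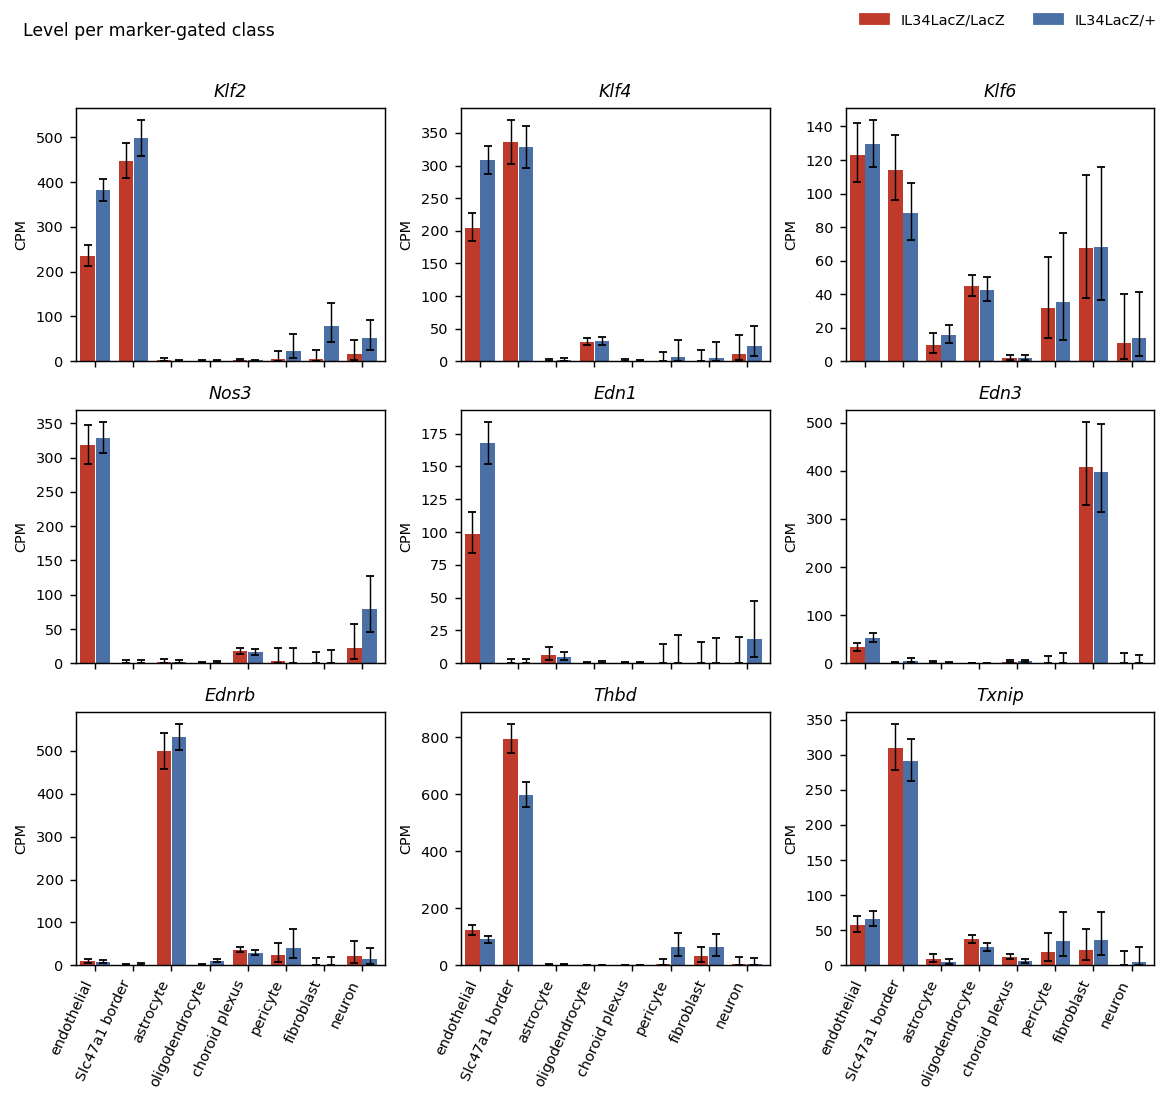
CPM of summed UMIs (vertical axes, linear, each gene on its own scale) in 8 marker-gated classes for the IL34LacZ/LacZ library (red, left) and the IL34LacZ/+ library (blue, right), with exact Poisson 95% intervals over UMIs as error bars. Klf2, Klf4 and Klf6 share the endothelial-like and Slc47a1 border-like classes, Nos3 and Edn1 stand in endothelial-like, Ednrb in astrocyte-like and Edn3 in fibroblast-like cells.

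In endothelial-like cells Klf2 and both endothelin peptides were lower by more than 1.5-fold in the library labelled IL34LacZ/LacZ than in the library labelled IL34LacZ/+. Klf4 had a ratio below 1 that did not pass that limit, while Nos3 and Klf6 were close to equal and Thbd was somewhat higher. A gene was called when its CPM differed by more than 1.5-fold and its counting interval left out equality, among genes with at least 30 UMIs over both libraries. Klf2, Edn1 and Edn3 were called lower and none of the 9 was called higher, where 5.54% of the 9551 genes measured were called lower and 3.11% higher. The 9 genes were not chosen blind to these data. The median log2 ratio was −0.19 over the 9 genes and −0.03 over all genes measured.

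Klf2 had a log2 ratio of −0.70 (−0.87 to −0.53). Klf4, at 205 CPM in the IL34LacZ/LacZ library and 308 CPM in the IL34LacZ/+ library, had −0.58 (−0.77 to −0.40) and lay just inside the 1.5-fold limit. The UMIs were spread over many cells: no cell held more than 5.45% of the Klf2 or Klf4 UMIs of its library in this class. With each cell thinned to 2000 UMIs, 28.5% of 260 endothelial-like cells (23.1% to 34.4%) of the IL34LacZ/LacZ library and 42.0% of 462 (37.4% to 46.6%) of the IL34LacZ/+ library had a Klf2 UMI. Klf4 was found in 78 of the 260 (24.5% to 36.0%) and 180 of the 462 (34.5% to 43.6%). These Klf4 intervals overlap. Overlap alone does not show equal shares, and no interval of the difference was computed. Thinned to 1000 UMIs, which keeps all 291 and 507 cells, the Klf2 intervals overlapped, at 20.6% (16.1% to 25.7%) in the IL34LacZ/LacZ library and 24.9% (21.1% to 28.9%) in the IL34LacZ/+ library. The separation of the Klf2 intervals thus depended on this setting. At 2000 UMIs oligodendrocyte-like cells had a Klf2 UMI in 0.433% and 0% of cells. Before thinning, the share of endothelial-like cells with a Klf2 UMI was 55.0% in the IL34LacZ/LacZ library (median 4883 UMIs per cell) and 62.7% in the IL34LacZ/+ library (median 4387 UMIs), and in oligodendrocyte-like cells 2.55% and 1.57% (median 16471 and 13759 UMIs). Klf6 had 123 CPM (107 to 142) and 129.6 CPM (116 to 144), a log2 ratio of −0.07 (−0.33 to 0.18).

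Of the KLF loci, the windows upstream of Klf2 and Klf4 are shown because these genes had the lowest ratios of the 3 KLF genes. Of the endothelin genes called lower, Edn1 and Edn3, only the window of Edn1 is shown. In the GENCODE annotation of GRCm38, Klf2 (ENSMUSG00000055148) spans chr8:72319033-72321656, Klf4 (ENSMUSG00000003032) chr4:55527143-55532466 and Edn1 (ENSMUSG00000021367) chr13:42301476-42307990, each protein coding. The set of RefSeq (GRCm38.p6) promoters used here held 7 of the 9 genes, without Nos3 and Thbd. Each line below gives the 250 bases before the RefSeq start, for Klf2 at chr8:72318812-72319061 (plus strand), for Klf4 at chr4:55532476-55532725 (minus strand) and for Edn1 at chr13:42301226-42301475 (plus strand). Capitals mark matches on either strand to the MEF2 consensus and to GGGCGG, the GC box that Sp and KLF proteins can bind. The RefSeq start of Klf2 lies 29 bases downstream of the GENCODE start, so the last 29 bases of its window are inside the GENCODE gene, that of Klf4 lies 9 bases upstream, and that of Edn1 is the same.
Klf2: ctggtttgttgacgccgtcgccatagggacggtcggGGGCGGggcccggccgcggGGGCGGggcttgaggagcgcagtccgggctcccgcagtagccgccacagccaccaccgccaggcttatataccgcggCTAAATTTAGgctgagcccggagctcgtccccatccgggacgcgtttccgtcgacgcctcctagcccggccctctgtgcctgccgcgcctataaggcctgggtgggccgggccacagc
Klf4: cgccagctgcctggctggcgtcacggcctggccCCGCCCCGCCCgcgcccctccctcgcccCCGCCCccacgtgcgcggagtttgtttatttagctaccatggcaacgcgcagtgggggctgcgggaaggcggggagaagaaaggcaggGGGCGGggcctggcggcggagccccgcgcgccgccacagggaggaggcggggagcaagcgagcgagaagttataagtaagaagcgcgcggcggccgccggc
Edn1: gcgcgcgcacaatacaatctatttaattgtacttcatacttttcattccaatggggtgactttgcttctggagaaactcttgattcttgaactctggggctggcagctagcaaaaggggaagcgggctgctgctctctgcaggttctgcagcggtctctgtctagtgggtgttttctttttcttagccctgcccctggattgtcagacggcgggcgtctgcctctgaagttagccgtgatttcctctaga
The Klf2 window held 1 match to the MEF2 consensus, 108 bases before the RefSeq start, and 2 GC boxes. The Klf4 window held 4 GC boxes, of which 2 overlap by 1 base, and the Edn1 window neither motif. The MEF2 consensus was found in 2.92% and GGGCGG in 32.7% of the 32851 promoter windows of the same length. CACCC, the core of the CACCC box bound by KLF proteins, was found in 52.0% of windows and in those of Klf2 (1 match) and Edn1 (2 matches). The Edn3 window, not shown, held 4 matches to CACCC and neither marked motif. These are letters in a window, and no binding was measured.

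Nos3 had 318 CPM (291 to 347) in endothelial-like cells of the IL34LacZ/LacZ library and 329 CPM (307 to 352) in those of the IL34LacZ/+ library, a log2 ratio of −0.05 (−0.21 to 0.11). Differences of more than 1.5-fold lie outside that interval. Edn1 stood at 98.9 CPM (84.3 to 115) and 168 CPM (152 to 184), with a log2 ratio of −0.76 (−1.03 to −0.50), and Edn3 had −0.67 (−1.16 to −0.21). Thbd had 123 CPM (106 to 141) and 91.1 CPM (79.9 to 103), a log2 ratio of 0.43 (0.15 to 0.71). Txnip had 58.0 CPM (46.9 to 70.9) and 66.3 CPM (56.8 to 77.0), with overlapping intervals. In cells thinned to 2000 UMIs Nos3 was found in 40.4% of endothelial-like cells of the IL34LacZ/LacZ library and 45.7% of those of the IL34LacZ/+ library, Edn1 in 12.7% and 17.5%, Edn3 in 6.15% and 8.44%, and Thbd in 17.7% and 12.6%. Their intervals overlap for each of these genes, and no interval of the differences was computed. Thinned to 1000 UMIs, the order of the libraries turned for Nos3 (27.5% and 25.2%), Edn1 (10.3% and 9.27%) and Edn3 (2.75% and 2.56%), and Thbd stood at 8.59% and 7.30%, so no direction is read from the shares of these genes. At 2000 UMIs Nos3 and Edn1 were found in 0.433% and 0% of oligodendrocyte-like cells of the IL34LacZ/LacZ library and in 0% and 0% of those of the IL34LacZ/+ library.

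The endothelial-like cells also differed in the share of ribosomal protein genes. Endothelial-like cells whose ribosomal protein genes took 1.5% or more of the UMIs were 9.28% of the class in the IL34LacZ/LacZ library (27 cells) and 17.8% in the IL34LacZ/+ library (90 cells). Such cells had 3.01 times the Klf2 level of the other endothelial-like cells in the IL34LacZ/LacZ library and 3.31 times in the IL34LacZ/+ library. Klf4 was 2.01 and 1.70 times and Edn1 1.88 and 1.73 times as high in them in the IL34LacZ/LacZ and IL34LacZ/+ libraries. Nos3 had log2 ratios between these sets that included equality, of 0.00 (−0.46 to 0.43) in the IL34LacZ/LacZ library and −0.19 (−0.45 to 0.06) in the IL34LacZ/+ library. Thbd stood at 0.910 times in the IL34LacZ/LacZ library, with an interval that includes equality, and 2.45 times in the IL34LacZ/+ library. Txnip stood at 1.29 times, again with an interval that includes equality, and 3.44 times. The summed level of the 17 immediate early and dissociation genes in the tables moved with the same split: 742 CPM in the IL34LacZ/LacZ library and 1561 CPM in the IL34LacZ/+ library in cells of high ribosomal protein share, against 385 and 381 CPM in the others. Its part in the Klf2 and Klf4 levels was not tested.

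Within the endothelial-like cells of low ribosomal protein share (264 cells of the IL34LacZ/LacZ library and 417 of the IL34LacZ/+ library) the picture changed for 3 of the genes. Klf2 had 198 CPM (176 to 222) and 263 CPM (242 to 286), a log2 ratio of −0.41 (−0.62 to −0.20), and was no longer past 1.5-fold. Thbd was higher in the library labelled IL34LacZ/LacZ, with 124 CPM (106 to 143) against 71.0 CPM (60.1 to 83.3), a log2 ratio of 0.80 (0.48 to 1.12), and was called. By the vessel zones described below, its interval left out equality in venous-like cells but not in capillary-like cells or those of no zone. Txnip had 56.5 CPM (45.1 to 69.9) and 45.0 CPM (36.4 to 55.0), with the sign of its ratio turned to 0.33 (−0.11 to 0.77). Klf4 kept −0.53 (−0.74 to −0.32), Edn1 −0.68 (−0.98 to −0.39) and Edn3 −0.72 (−1.22 to −0.23), the endothelins being called lower. In these cells 3.68% of 9037 genes were called lower and 3.70% higher.

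In the cells of high ribosomal protein share Klf2 reached 596 CPM (479 to 733) in the IL34LacZ/LacZ library and 870.4 CPM (791 to 955) in the IL34LacZ/+ library, a log2 ratio of −0.55 (−0.89 to −0.22). Txnip, at 72.9 CPM (36.4 to 130.4) and 155 CPM (122 to 193), was called lower there, where 6.04% of 4354 genes were and 5.26% were higher. Of its UMIs 1 cell held 54.5% in the IL34LacZ/LacZ library. Klf2 was thus lower in the IL34LacZ/LacZ library on each side of the split by less than over the whole class, and Thbd lay on opposite sides of equality, at 0.80 and −0.63 (−1.47 to 0.13).

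**Figure D2:**
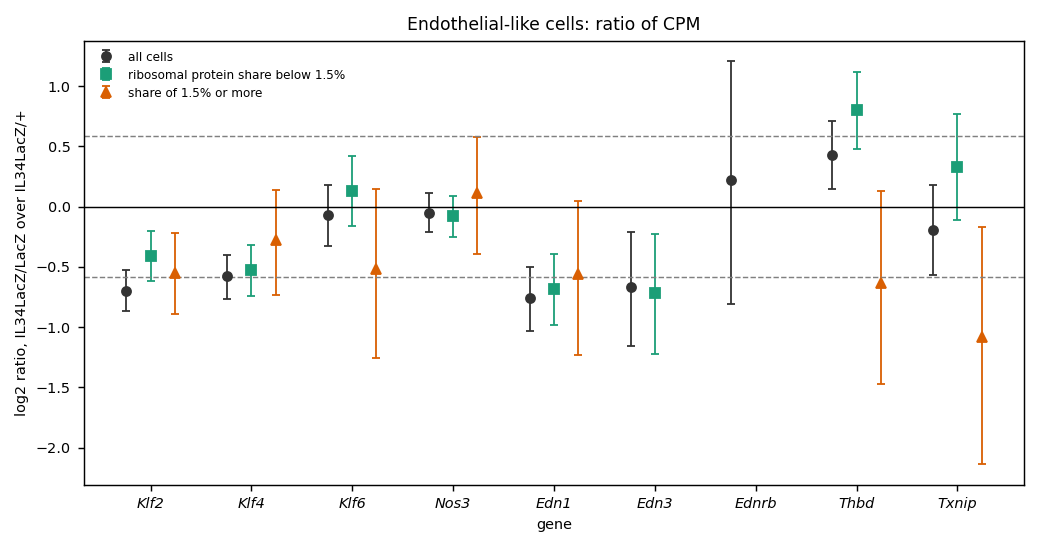
Log2 ratio of CPM, IL34LacZ/LacZ over IL34LacZ/+ (vertical axis), for each gene in all endothelial-like cells (circles), in those of ribosomal protein share below 1.5% (squares) and in those of 1.5% or more (triangles), with 95% counting intervals and dashed lines at 1.5-fold. Points need 30 UMIs, so Edn3 and Ednrb lack some. Klf2, Klf4, Edn1 and Edn3 lie below 0 in each set drawn, Nos3 stays near 0, and Thbd and Txnip change side with the share.

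**Figure D3:**
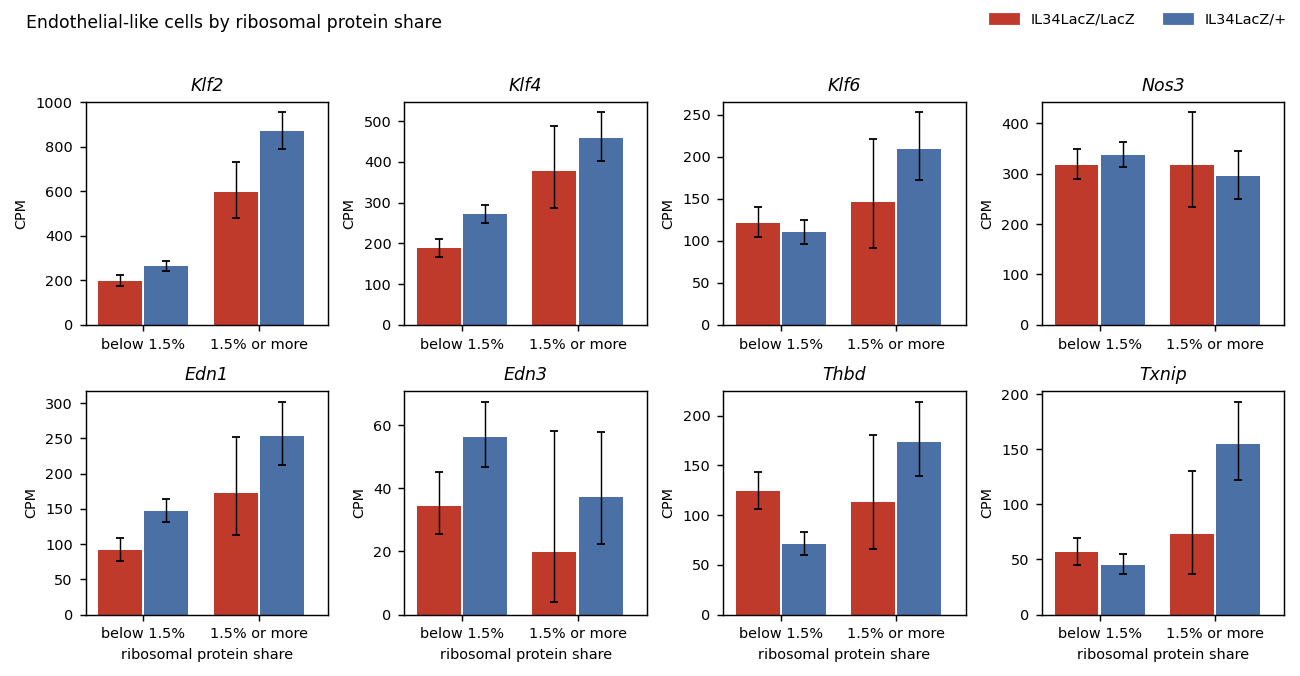
CPM with exact Poisson 95% intervals (vertical axes, linear) of 8 genes in endothelial-like cells below and at or above a ribosomal protein share of 1.5%, for the IL34LacZ/LacZ library (red, left) and the IL34LacZ/+ library (blue, right). Klf2 is about 3-fold higher in cells of high share in both libraries, while the Nos3 intervals of the 4 sets overlap.

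By vessel zone, Edn1 was a gene of arterial-like cells, Ednrb a gene of fenestrated-like cells, and Klf2, Klf4 and Klf6 were present in every zone. Zones came from marker genes (for example Bmx and Gkn3 for arterial, Mfsd2a and Tfrc for capillary, Adgrg6 for venous, Plvap and Esm1 for fenestrated), and 183 endothelial-like cells of the IL34LacZ/LacZ library and 231 of the IL34LacZ/+ library fell in none. Arterial-like cells numbered 9 and 38, capillary-like 64 and 203, venous-like 29 and 25, and fenestrated-like 6 and 10, so arterial and fenestrated values are given as levels only.

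Edn1 stood at 325 CPM (208 to 483) in arterial-like cells of the IL34LacZ/LacZ library and 634 CPM (542 to 738) in those of the IL34LacZ/+ library. In capillary-like cells it stood at 88.3 CPM (60.4 to 125) and 112 CPM (93.1 to 134), and venous-like cells had 60.5 CPM (14 UMIs) in the IL34LacZ/LacZ library and 83.0 CPM (16 UMIs) in the IL34LacZ/+ library. The arterial-like cells thus held most per cell in both libraries, and in the IL34LacZ/LacZ library 1 of the 9 held 54.2% of their Edn1 UMIs. Summed border markers were at 988 CPM in those 9 cells and 49.1 CPM in the 38 of the IL34LacZ/+ library. Without the arterial-like cells, Edn1 had 88.2 CPM in the endothelial-like cells of the IL34LacZ/LacZ library and 115 CPM in those of the IL34LacZ/+ library, a log2 ratio of −0.39 (−0.69 to −0.09) in place of −0.76. With the cells of high ribosomal protein share left out as well, the values were 88.8 and 98.4 CPM and the ratio −0.15 (−0.48 to 0.18). Edn1 was past 1.5-fold in neither reduced set. Edn3 stood at 108 CPM (46.7 to 213) and 159 CPM (114 to 214) in arterial-like cells, and without them its ratio was −0.47 (−1.01 to 0.05). In capillary-like cells the Edn3 ratio was 0.11 (−0.89 to 1.02), and 0.14 (−0.87 to 1.07) in those of low ribosomal protein share. Klf2 and Klf4 moved less when arterial-like and high-share cells were both left out, to −0.36 (−0.57 to −0.14) and −0.48 (−0.70 to −0.26). Thbd kept 0.78 (0.45 to 1.11). Fewer arterial cells and less arterial marker RNA per cell cannot be told apart here. These sets without arterial-like cells were chosen after seeing the data.

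Ednrb was found in few endothelial-like cells, 5 in the IL34LacZ/LacZ library and 9 in the IL34LacZ/+ library, and 3 and 8 of these had a UMI of Plvap, the diaphragm protein of fenestrated capillaries. Of the Plvap-positive cells 3 of 6 in the IL34LacZ/LacZ library and 8 of 10 in the IL34LacZ/+ library had an Ednrb UMI, against 2 of 285 and 1 of 497 cells without Plvap. In fenestrated-like cells it stood at 247 CPM (135 to 414, 14 UMIs) and 309.6 CPM (192 to 473, 21 UMIs). In capillary-like cells there was no Ednrb UMI in either library, where 3 counts would stand at 8.28 CPM and 2.76 CPM. The Plvap-positive cells are too few to compare the libraries.

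Klf2 stood at 203 CPM (114 to 335) in arterial-like cells of the IL34LacZ/LacZ library and 434 CPM (358 to 521) in those of the IL34LacZ/+ library, and Klf4 at 108 CPM (46.7 to 213) and 309.6 CPM (246 to 384). Klf2 in capillary-like cells had 306 CPM (252 to 369) in the IL34LacZ/LacZ library and 425 CPM (387 to 466) in the IL34LacZ/+ library, a log2 ratio of −0.47 (−0.79 to −0.17), and Klf4 240.0 CPM (192 to 296) and 341 CPM (307 to 377), a ratio of −0.51 (−0.86 to −0.17). Neither was called in that zone, where 4.48% of 6472 genes were lower and 3.92% higher. In venous-like cells the ratios were −1.23 (−1.78 to −0.70) for Klf2, −1.66 (−2.40 to −0.96) for Klf4 and −0.60 (−1.04 to −0.16) for Nos3, all called lower where 9.29% of 2928 genes were and 7.00% were called higher. The venous Klf2 value rested on 1 cell, which held 53.4% of the UMIs of the IL34LacZ/+ library, and without cells of high ribosomal protein share it turned to 183 CPM against 143 CPM (0.36, −0.45 to 1.21). Klf4 and Nos3 stayed lower in those cells, at −1.13 (−2.03 to −0.25) and −0.62 (−1.10 to −0.15), in 26 and 18 cells. With Vcam1, Icam1 and Il1r1 added to the venous list (36 cells of the IL34LacZ/LacZ library and 34 of the IL34LacZ/+ library), Nos3 was no longer past 1.5-fold, at −0.53 (−0.93 to −0.13), and Klf6 was, at −0.78 (−1.50 to −0.08) in place of −0.32 (−1.17 to 0.53). Nos3 had 106 and 103 CPM in fenestrated-like cells, its lowest zone in both libraries (38.8 to 230.0 and 41.5 to 213 CPM). Thbd was lowest in capillary-like cells of the IL34LacZ/LacZ library (85.5 CPM) and in arterial-like cells of the IL34LacZ/+ library (71.7 CPM), and stood at 238 CPM (179 to 309) and 213 CPM (153 to 289) in venous-like cells. Thbd in fenestrated-like cells stood at 387 CPM (243 to 587) and 177 CPM (91.4 to 309). Without cells of high ribosomal protein share, Thbd in venous-like cells had a log2 ratio of 0.97 (0.18 to 1.82), on 55 and 18 UMIs in 26 and 18 cells. In such capillary-like cells it had 0.20 (−0.56 to 0.91), and in those of no zone 0.49, with an interval that includes equality. The part of zone makeup in the Thbd ratio of all low-share cells was not tested.

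Txnip was highest in fenestrated-like cells too, at 229 CPM (122 to 392) in the IL34LacZ/LacZ library and 457 CPM (311 to 649) in the IL34LacZ/+ library, but 1 cell held 46.2% and 67.7% of these UMIs. In the other zones Txnip stood between 64.8 and 94.7 CPM in the IL34LacZ/LacZ library and between 53.3 and 79.3 CPM in the IL34LacZ/+ library. In arterial-like, capillary-like and venous-like cells Klf6 stood at 162, 152 and 108 CPM in the IL34LacZ/LacZ library. In the IL34LacZ/+ library it stood at 177, 126 and 135 CPM. The intervals overlapped within each library, and no ratio between zones was computed. Klf6 in capillary-like cells of low ribosomal protein share had 141 CPM in the IL34LacZ/LacZ library and 93.4 CPM in the IL34LacZ/+ library (log2 ratio 0.59, 0.03 to 1.14), and Txnip 76.9 and 45.5 CPM (0.76, −0.05 to 1.53). In the endothelial-like cells that fell in no zone and had a low ribosomal protein share, 171 and 204 cells, Klf2 and Klf4 came closer to equality, at −0.29 (−0.59 to 0.00) and −0.28 (−0.56 to 0.01), Edn1 stood at 0.20 (−0.25 to 0.65), and Edn3, with 17 and 38 UMIs, at −1.12 (−2.03 to −0.26).

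**Figure D4:**
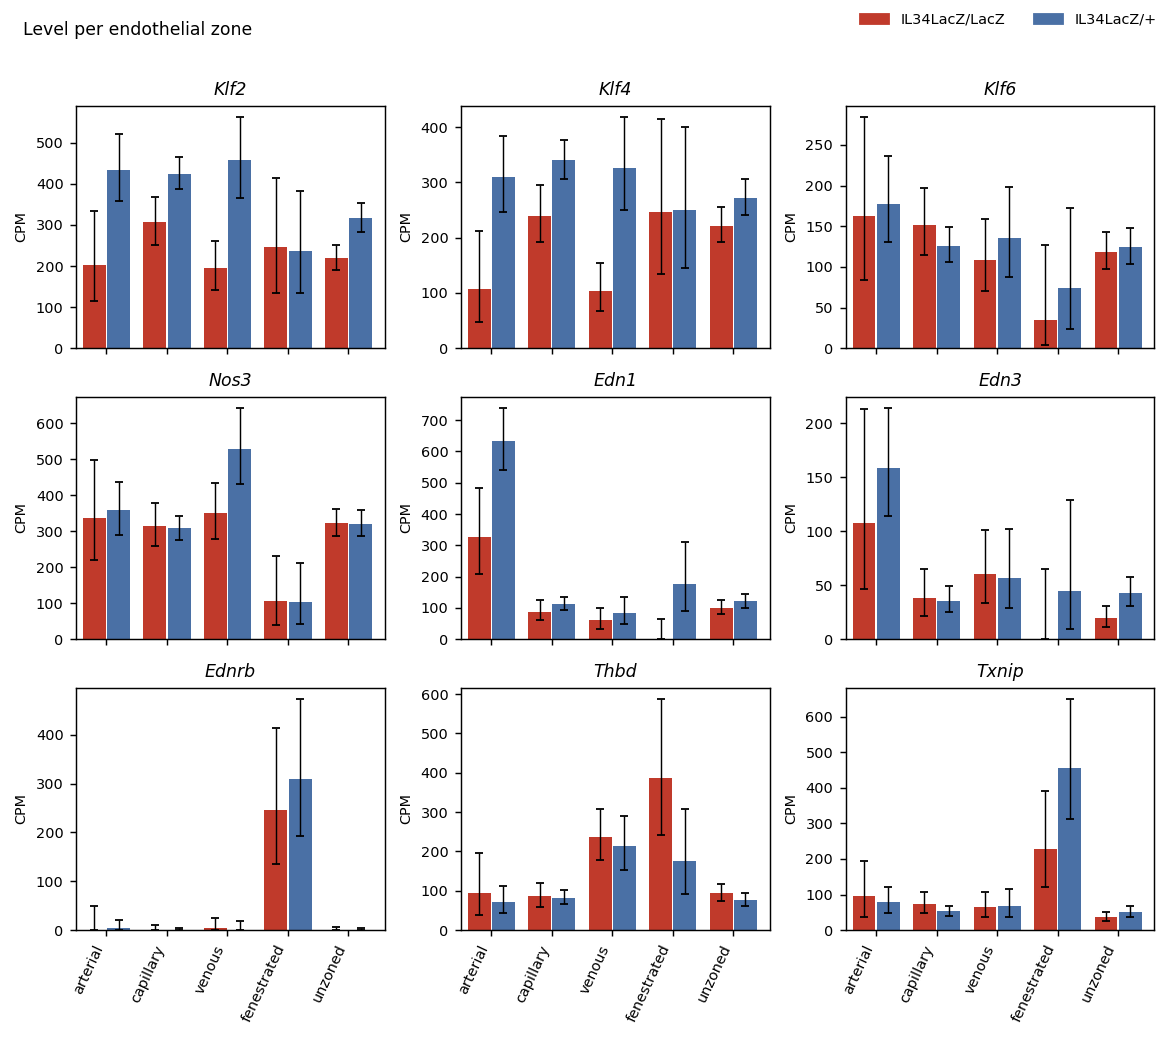
CPM with exact Poisson 95% intervals (vertical axes, linear, each gene on its own scale) in endothelial zones for the IL34LacZ/LacZ library (red, left) and the IL34LacZ/+ library (blue, right). Edn1 is highest in arterial-like cells and Ednrb in fenestrated-like cells, while fenestrated-like bars rest on 6 and 10 cells.

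Cell by cell, the KLF genes were found together only to a limited extent. With cells thinned to 2000 UMIs, Klf6 was found in 35.1% (24.4% to 47.1%) of the 74 Klf2-positive and 15.6% (10.7% to 21.6%) of the 186 Klf2-negative endothelial-like cells of the IL34LacZ/LacZ library, and in 20.6% (15.2% to 27.0%) of 194 and 17.2% (12.8% to 22.2%) of 268 cells of the IL34LacZ/+ library. Klf4 was found in 28.4% of Klf2-positive and 30.6% of Klf2-negative cells of the IL34LacZ/LacZ library and in 43.8% and 35.4% of those of the IL34LacZ/+ library, with overlapping intervals in both. The intervals of Nos3, Edn1, Thbd and Txnip overlapped too. No interval of the differences was computed, so no link of these genes to Klf2 is read within the class at this depth.

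Across 14 profiles (7 classes in each library) the levels of Klf2 and Klf4 had a Pearson correlation of 0.92, Klf2 and Thbd of 0.92, Thbd and Txnip of 0.90, and Nos3 and Edn1 of 0.91. These profiles share libraries, and a few classes set the values. They leave out fibroblast-like cells, the class of highest Edn3, so the genes named for Edn3 are alike only over its lower levels in the other classes. Among the most alike genes of 12203 compared were Fn1, Anxa3 and Psmb9 for Klf2, Gask1b and Klf10 for Klf4, Ppp1cb, Uap1 and Prrc1 for Klf6, and Slco1a4, Rassf9 and Lmo2 for Nos3. For Edn1 they were Adamtsl2, Gm48601 and Gvin1, for Edn3 Igfbp3, Prelid2 and Gimap1, and for Ednrb Acss3, Kank1 and Ccdc190. For Thbd they were Rnase4, Fxyd5 and Isg15, and for Txnip Dusp1, Hmgb2 and Kcnj2.

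Of the genes around these in the same pathways, few were called in endothelial-like cells. Of 8 measured other KLF factors 1 was higher and none lower: Klf8 stood at 34.8 CPM in the IL34LacZ/LacZ library and 17.2 CPM in the IL34LacZ/+ library (log2 ratio 1.02, 0.43 to 1.62). None of 11 measured genes of the list of ERK5 pathway, MEF2 and CCM complex genes was called (median 0.14, over genes of unlike roles). The same held for 13 genes of flow sensing (median 0.01) and 8 known KLF2 or KLF4 targets (median 0.04). It held for 12 genes of nitric oxide synthesis and signalling too (median −0.09). Some genes not called had intervals that left out equality. Examples are Piezo1 (0.42, 0.16 to 0.68) and Podxl (0.32, 0.20 to 0.43) above it, and Smad6 (−0.48, −0.78 to −0.19) and Smad7 (−0.36, −0.56 to −0.17) below it. The endothelin list had 1 measured gene, the converting enzyme gene Ece1, which was not called. None of 5 genes of the protein C and coagulation list and none of 9 of the thioredoxin list was called. Ptgs2, the inducible cyclooxygenase of prostaglandin synthesis, was the 1 called of 9 other vasoactive genes, at 49.4 CPM and 18.3 CPM (log2 ratio 1.43, 0.90 to 1.98). Ptgs2 was among the leading genes of the venous-like zone, which held 29 of 291 and 25 of 507 endothelial-like cells. The part of zone makeup in its ratio was not tested. In cells of low ribosomal protein share Klf8 and Ptgs2 stood at 1.08 and 1.73, and Smad6, an inhibitor of BMP signalling in the flow list, was called lower, at 77.3 CPM and 129 CPM (−0.74, −1.06 to −0.42). In 3 lists with no call over the whole class, 1 gene each was called in these cells on few UMIs. Slco2a1, a prostaglandin transporter gene of the KLF target list, was higher (19 UMIs in the IL34LacZ/LacZ library and 12 in the IL34LacZ/+ library, 1.17, 0.05 to 2.34). Pts, an enzyme gene of tetrahydrobiopterin synthesis in the nitric oxide list, was lower (20 and 54 UMIs, −0.93, −1.75 to −0.16), and Mlx of the thioredoxin list was higher (20 and 12 UMIs, 1.24, 0.14 to 2.41). Of 15 immediate early and dissociation genes 4 were lower in the whole class: Fos (−2.13), Jun (−0.99), Junb (−0.92) and Jund (−0.79). Of the 10 of that list measured in cells of low ribosomal protein share, none was lower and 2 were higher, Egr1 (1.24) and Zfp36 (0.83).

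In astrocyte-like cells, where 3.86% of 9752 genes were called lower and 2.24% higher, 2 of 10 measured genes of the ERK5, MEF2 and CCM complex list were lower. Heg1, whose product anchors the CCM complex, stood at 30.1 CPM in the IL34LacZ/LacZ library and 60.6 CPM in the IL34LacZ/+ library (−1.01, −1.59 to −0.47), and Mef2c at 46.4 CPM and 75.1 CPM (−0.69, −1.16 to −0.25). In endothelial-like cells neither of these was called. Their ratios there lay above equality, at 0.56 (0.48 to 0.64) for Heg1 and 0.42 (0.31 to 0.54) for Mef2c. Pde3a, a phosphodiesterase gene, was lower (10 UMIs in the IL34LacZ/LacZ library and 76 in the IL34LacZ/+ library, log2 ratio of CPM −1.96), as was Mlxipl, a glucose-responsive regulator of Txnip (10 and 44 UMIs, −1.17). Ednrb and Klf6, the 2 of the 9 genes measured in this class, were not called: Klf6 stood at 9.46 CPM (4.72 to 16.9) and 15.8 CPM (11.1 to 21.9).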

How the data were processed

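Per the file headers, the authors deposited gene-by-barcode tables of whole-number UMI counts made with Cell Ranger (7.1.0), against GRCm38.p6 (mm10) per the submitters' processing notes. Deposited barcodes numbered 5400 (36696941 UMIs) for IL34LacZ/LacZ and 3901 (26679053 UMIs) for IL34LacZ/+. Kept cells had 1000 or more UMIs over 500 or more genes, with no more than 15% from mitochondrial genes, and Scrublet (scanpy 1.11.5) removed 7 (0.596%) and 3 (0.180%) as doublets, few enough that missed doublets are likely. Of the barcodes, 8 occur in both libraries.

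Each cell took the class of its highest mean marker score (at least 0.8, at least 0.5 above the next class, at least 3 markers detected), and 10 endothelial-like cells of each library lay near the 0.5 limit (0.3 to 0.7). Endothelial zones used 0.2 and 0.2 with 3 markers. These thresholds were set after the marker scores were seen, and the 9 genes, gene lists and border markers were chosen with earlier results of these data known. CPM is summed UMIs of a class over its total, with exact Poisson 95% intervals. Shares have exact Clopper-Pearson intervals and ratios exact conditional binomial intervals. Ratios were computed for classes with at least 20 cells in each library (zones with 10). The genes named are the 9 in every class and zone, called genes of the lists (up to 4 a list in endothelial-like and 2 in astrocyte-like cells) and the 3 most alike in Pearson correlation of log2(CPM + 10), of which 1 is not reported here. The ratio and its interval were tested on simulated Poisson counts, the model that the interval assumes. That simulation held no spread between cells, so it does not cover UMIs that are not independent. Alternatives are given in the closing section. No sample was left out.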

Additional observations from a re-analysis of the deposited data

How the results depend on the processing

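All values here are log2 ratios of the IL34LacZ/LacZ library over the IL34LacZ/+ library in endothelial-like cells, unless stated. Klf2, Klf4, Edn1 and Edn3 were negative under all 16 alternatives run for each, from −0.80 to −0.36 for Klf2, −0.63 to −0.28 for Klf4, −1.24 to −0.15 for Edn1 and −0.90 to −0.47 for Edn3. Of the 15 with an interval, Klf2 was past 1.5-fold in 12, Klf4 in 7, Edn1 in 12 and Edn3 in 10. The remaining alternative, the mean CPM over cells with equal weight per cell, gave −0.53 for Klf2, −0.45 for Klf4, −0.52 for Edn1 and −0.59 for Edn3. Klf2, Klf4 and Edn1 thus lay inside 1.5-fold when cells were weighted alike. Edn3 lost its call with an interval that includes 0 when thinned to 2000 UMIs (−0.58, −1.47 to 0.26) and without cells holding 2 or more markers of another class (−0.47, −1.52 to 0.52). Without cells of ribosomal protein share of 1.5% or more, Klf2 was −0.41, Thbd 0.80 and Txnip 0.33, and Klf2 in venous-like cells turned to 0.36. Without cells holding 2 or more markers of another class, Edn1 was −1.24 and Ednrb −2.08, in 128 and 185 cells. With cells thinned to 2000 UMIs, Klf6 was 0.23 and Thbd 0.76. In alternatives chosen after seeing the data, cells of ribosomal protein share of 1.5% or more alone gave −0.28 for Klf4, −0.52 for Klf6, −0.63 for Thbd and −1.08 for Txnip; leaving out arterial-like cells gave −0.39 for Edn1; and leaving out both gave −0.36 for Klf2, −0.15 for Edn1, 0.78 for Thbd and 0.42 for Txnip. The causes were not tested. Over all genes in the class, 194 were lower and 117 higher at 2-fold, and 282 and 140 with at least 100 UMIs, against 529 and 297. Leiden clusters named from the same markers put 2674 of 2833 cells in the same class. No paired analysis was possible because each genotype has 1 library. Depth limits the shares of thinned cells and the zones of few cells.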
